A study of Caenorhabditis elegans with 2 samples.

Results

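This account concerns the 14714 genes annotated as piRNA genes on chromosome IV of Caenorhabditis elegans (Ensembl release 115, WBcel235, which has the coordinates of ce11). They were taken by their annotated biotype and chromosome alone, without using any measured value, and are 95.8% of the 15363 piRNA genes on the nuclear chromosomes and part of 46890 annotated genes in all. The data are lists of binding peaks from chromatin immunoprecipitation and sequencing (ChIP-seq) of the protein F44E2.7, made in whole L4 larvae that were 48 hours old. The larvae belonged to strain OP381, which carries the transgene wgIs381, with F44E2.7 joined to a TY1, EGFP and 3xFLAG tag (clone P000012_B04) and with unc-119(+), in an unc-119(tm4063) background. The 2 biological replicates form 1 group, both carry the transgene, and no untagged or second condition was analysed here. Precipitation used a GFP antibody according to the description, whereas the antibody field of the labels names F44E2.7. Whole larvae mix all tissues, so binding in few cells and weak binding in many cells cannot be told apart. The files give no read counts, so depth is unknown, and p-values across peaks describe these lists, since peaks are not replicates.

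In C. elegans, piRNAs are also called 21U-RNAs, because they are 21 bases long and start with U. They are made in the germline, where they load the Argonaute PRG-1 and guide it to foreign or unwanted transcripts, which secondary small RNAs then silence. Each 21U-RNA gene is a tiny separate transcription unit of RNA polymerase II. Most lie in crowded stretches of chromosome IV and carry an upstream element known as the Ruby motif, with the core CTGTTTCA. A complex that includes PRDE-1, TOFU-4, TOFU-5 and SNPC-4 acts at these genes, and SNPC-4 is a subunit of SNAPc, the factor that also serves small nuclear RNA genes.

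The 5 members that had a peak summit of the thresholded list within 200 bp are shown first with the 60 bases before them, because that is where the motif lies. They are followed by 21ur-1, a member with no such summit, as an example of the full motif. Each line reads 5′ to 3′ on the gene's own strand (WBcel235), the last 21 bases are the piRNA gene, and capitals mark the core CTGTTTCA or, where that is absent, the first GTTTC, its inner part.
21ur-5229 (chrIV:5967029-5967109, + strand): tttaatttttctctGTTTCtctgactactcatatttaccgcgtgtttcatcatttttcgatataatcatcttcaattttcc
21ur-5470 (chrIV:14224943-14225023, - strand): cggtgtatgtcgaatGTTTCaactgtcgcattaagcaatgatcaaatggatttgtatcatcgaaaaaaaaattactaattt
21ur-3160 (chrIV:14224908-14224988, + strand): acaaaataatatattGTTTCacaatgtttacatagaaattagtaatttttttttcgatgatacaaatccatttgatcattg
21ur-2814 (chrIV:16167578-16167658, + strand): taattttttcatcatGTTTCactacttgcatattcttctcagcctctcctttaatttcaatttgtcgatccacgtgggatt
21ur-7377 (chrIV:5265097-5265177, - strand): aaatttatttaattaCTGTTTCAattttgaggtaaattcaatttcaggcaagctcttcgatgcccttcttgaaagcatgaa
21ur-1 (chrIV:16687047-16687127, + strand): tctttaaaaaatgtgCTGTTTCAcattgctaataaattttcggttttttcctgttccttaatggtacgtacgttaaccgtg

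F44E2.7 summits were scarce beside piRNA genes. In the thresholded list made from both replicates, 5 of the 14714 members (0.0340%, exact Clopper-Pearson 95% interval 0.0110 to 0.0793%) had a summit within 200 bp. Among all annotated genes of the genome the share was 2.49%. Gene length enters that share, and of every possible window of 21 bp on chromosome IV, 0.282% had a summit as close. In the ranked list made from both replicates, taken at the authors' score of 540 or more (an irreproducible discovery rate, IDR, of 0.05), 11 members (0.0748%, interval 0.0373 to 0.134%) had one. The matching shares were 6.36% of all annotated genes and 1.07% of windows of 21 bp. Both intervals treat members as independent, although neighbouring members can share a summit. The 5 members belong to 4 summits and the 11 to 9, so the intervals can be too narrow. Of other classes on the same chromosome, 24 of 71 tRNA genes (33.8%), 11 of 59 snoRNA genes (18.6%), 32 of 1058 ncRNA genes (3.02%) and 78 of 3281 protein-coding genes (2.38%) had a thresholded summit as close. The count was 1 of 50 miRNA genes (interval 0.0506 to 10.6%) and 0 of 41 snRNA genes (interval to 8.60%). These shares are a description, and the differences between classes were not tested.

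The distances of the members to the nearest summit are given as a description, since those of other genes or bases were not measured. Chromosome IV held 117 thresholded summits (6.69 per Mb) and 457 in the ranked list at 540 (26.1 per Mb), so summits are sparse everywhere. The median member was 80664 bp from a thresholded summit (interquartile range 39273 to 168764 bp) and 30759 bp from a summit of the ranked list at 540. Within 1000 bp of a thresholded summit lay 47 members (0.319%), and 133 (0.904%) lay within 1000 bp of one in the ranked list.

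The 5 members belong to 4 summits, and 3 of those 4 have another non-coding gene beside them. Of all 117 thresholded summits of the chromosome, 46 lay within 200 bp of a tRNA, tRNA pseudogene, snoRNA, snRNA or ncRNA gene. With 4 summits this difference was not tested. The summit nearest to a member stood 62 bp from 21ur-5229 (summit at 5967171, 82 bp downstream of the 5′ end of the piRNA gene), with a signal of 94.8, the authors' enrichment value on an unstated scale. It lay inside B0350.t1, a tRNA-Lys gene (5967160 to 5967232), and the ncRNA gene B0350.73 overlaps it. The summit at 14225097 had a signal of 87.7 and served both 21ur-3160, 109 bp away, and 21ur-5470, 134 bp away, a pair transcribed away from each other. It stood 5 bp before F02H6.t1, a tRNA-Pro gene (14225102 to 14225173). The summit at 5265030 had a signal of 77.6 and was 67 bp from 21ur-7377. It stood just past sls-2.19 (5264907 to 5265021), a pseudogene of spliced leader RNA, with the ncRNA genes F36H12.65 and F36H12.66 alongside. The remaining summit, at 16167525, had a signal of 80.1 and was 113 bp upstream of the 5′ end of 21ur-2814, with no other annotated gene within 200 bp.

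The windows of 50 bp to either side of 2 of these summits show the contrast in surroundings. Capitals mark the tRNA-Lys gene in the first and the summit base in the second, and neither holds CTGTTTCA on either strand.
Summit beside 21ur-5229 (chrIV:5967121-5967221, + strand): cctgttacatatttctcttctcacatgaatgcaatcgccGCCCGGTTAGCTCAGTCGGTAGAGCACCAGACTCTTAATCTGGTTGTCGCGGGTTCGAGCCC
Summit beside 21ur-2814 (chrIV:16167475-16167575, + strand): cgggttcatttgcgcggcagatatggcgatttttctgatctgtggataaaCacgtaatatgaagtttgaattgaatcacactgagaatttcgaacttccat

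Scores and signals in the lists of the single replicates differed at each of these sites. The lists are separate, and how far they differ over all summits was not measured, so a difference particular to these sites cannot be read from them. The summit beside 21ur-5229 scored 237 in replicate 1 and 806 in replicate 2. The summit shared by 21ur-3160 and 21ur-5470 scored 208 in replicate 1 and 868 in replicate 2. The summit beside 21ur-2814 scored 173 in replicate 1 and 434 in replicate 2. There the peak of replicate 1 had its own summit at 16167649, inside 21ur-2814 (16167638 to 16167658), and that of replicate 2 at 16167505. The summit beside 21ur-7377 scored 784 in replicate 1 and 65 in replicate 2, the opposite order. No summit of the 4 reached 540 in both replicates. On the whole chromosome 81 summits of replicate 1 and 105 of replicate 2 reached that score, against 457 of the pooled ranked list. How many of all summits reached it in both replicates was not counted. Signals in the list of replicate 1 were 31.6 beside 21ur-5229, 33.0 beside 21ur-3160, 29.9 beside 21ur-2814 and 46.4 beside 21ur-7377. In the list of replicate 2 the signals at these sites were 63.7, 55.9, 49.3 and 30.4 in the same order of genes. The conservative list, a second series-level thresholded list, held 3 of the 4 and lacked the summit beside 21ur-7377. Among the 117 thresholded peaks of chromosome IV these 4 ranked 42, 53, 67 and 75 by signal, so they stood in the middle of the list. The authors' −log10 q was low at all 4, at 0.908 beside 21ur-5229, 0.916 beside 21ur-3160, 0.810 beside 21ur-2814 and 0.768 beside 21ur-7377. It was not compared with that of other summits.

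**Figure D1:**
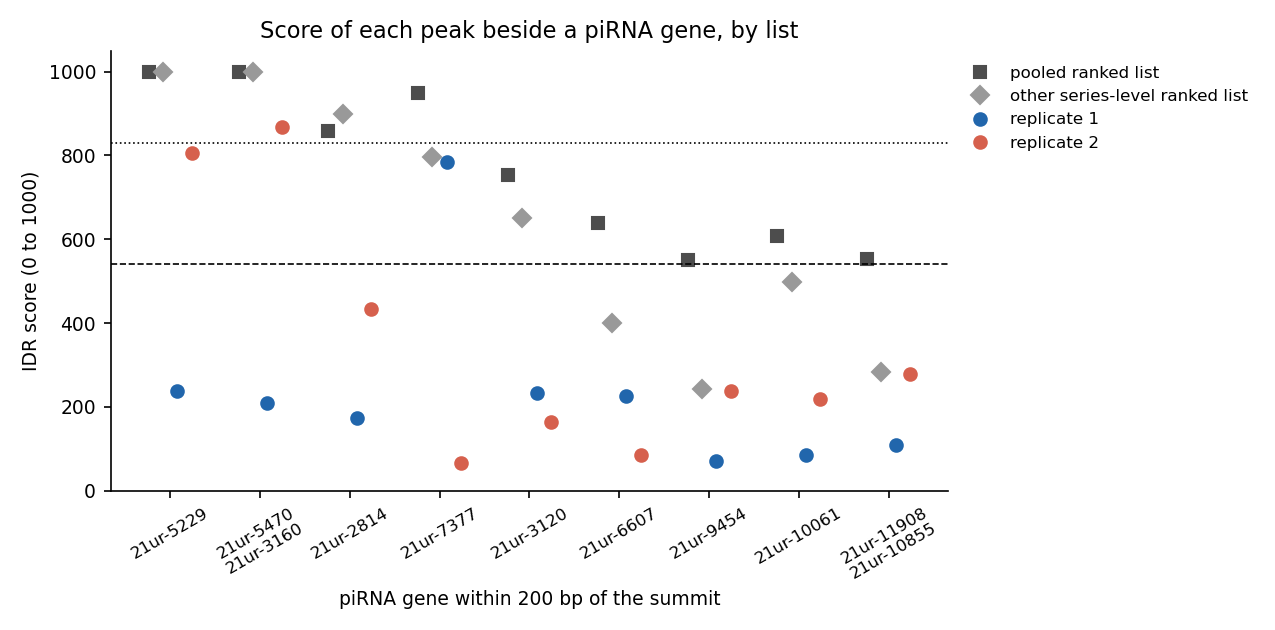
IDR score (0 to 1000) of each of the 9 peaks beside a piRNA gene in the pooled ranked list, the other series-level ranked list and the lists of replicate 1 and replicate 2, with the dashed line at 540 and the dotted line at 830 (IDR of 0.01). The 4 peaks on the left are in the thresholded list, and none of the 9 reaches 540 in both replicates. On chromosome IV as a whole, 81 summits of replicate 1 and 105 of replicate 2 reach 540, against 457 of the pooled ranked list.

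Lowering the threshold to a score of 540 added 5 summits and 6 members, with lower signals. The summit beside 21ur-3120 (signal 68.5) fell in an exon of xdh-1, which encodes xanthine dehydrogenase, with the ncRNA gene F55B11.132 within 200 bp. It scored 234 in replicate 1 and 164 in replicate 2. The one beside 21ur-6607 (signal 62.1) fell in nhr-46, a nuclear hormone receptor gene, and scored 225 in replicate 1 and 84 in replicate 2. The one beside 21ur-9454 (signal 60.8) fell in an exon of C31H1.1. Thus 4 of the 5 added summits were inside a protein-coding gene, the last of them in Y105C5A.15 beside the overlapping genes 21ur-11908 and 21ur-10855 (signal 41.8). The share of all ranked summits inside such a gene was not counted. A summit inside a piRNA gene occurred once in this list, 8 bp downstream of the first base of 21ur-10061, with a signal of 56.4, with the ncRNA gene B0350.81 within 200 bp and with scores of 84 in replicate 1 and 218 in replicate 2. Of the 9 summits in all, 3 reached 540 in one replicate, 6 in neither, and 5 reached it in the other series-level ranked list. The matching shares of all 457 ranked summits of the chromosome were not counted. Score 540 was passed narrowly by the summits beside 21ur-9454 (551) and 21ur-11908 (554). At the 5 added summits the −log10 q was lower still, from 0.446 beside 21ur-3120 to 0.099 beside 21ur-11908.

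Just beyond 200 bp of a thresholded summit stood 21ur-53 at 209 bp, 21ur-14607 at 218 bp, 21ur-3677 at 230 bp, 21ur-2298 at 293 bp and 21ur-1398 at 335 bp. The summit near 21ur-53 (signal 110) is beside the tRNA-Gly gene Y43D4A.t1, and the other 4 genes are near summits already described, those beside 21ur-2814 and 21ur-3160. The farthest member counted within the limit was 21ur-5470 at 134 bp.

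Summit density near piRNA genes was then compared with that in the rest of the chromosome, taken as the 115 bins of 100 kb with fewer than 20 piRNA genes, outside 200 bp of any such gene. Sequence within 200 bp of a piRNA gene covers 3.06 Mb, 17.5% of chromosome IV. It held 4 thresholded summits (1.31 per Mb), against 87 in 11.3 Mb of the low-density bins (7.67 per Mb), a ratio of 0.171 (95% interval 0.0455 to 0.453; two-sided exact binomial test, adjusted p = 1.90e-05 over 4 comparisons). In the ranked list at 540 it held 9 (2.94 per Mb), against 362 (31.9 per Mb), a ratio of 0.0923 (0.0419 to 0.177; exact binomial test, adjusted p = 9.41e-26). Both single-replicate lists gave the same direction. Replicate 1 had 0 of its 24 thresholded summits of the chromosome near a piRNA gene, and replicate 2 had 1 of 37. At 540, replicate 1 had 2 of 81 and replicate 2 had 2 of 105.

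Base composition moved with this difference. Sequence near piRNA genes was 29.7% GC, against 35.6% in the low-density bins, while the median GC at thresholded summits of the chromosome (over the base and 50 bp to either side) was 51.5%. From the summit rates of the low-density bins in classes of GC, 7.48 thresholded summits were expected near piRNA genes, and the 4 observed were then a ratio of 0.535 (0.143 to 1.42) that no longer passed (exact binomial test, p = 0.327). In the ranked list at 540, 34.1 were expected and 9 observed, a ratio of 0.264 (0.120 to 0.506; exact binomial test, p = 1.69e-06). This expectation was chosen after the data were seen.

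Summits below the thresholds were scarce there too. In the full ranked list, most of whose entries have a high IDR, 668 summits lay near piRNA genes (219 per Mb), against 12481 in the low-density bins (1100 per Mb), a ratio of 0.199 (0.184 to 0.215), or 0.298 after the same standardisation for GC. From the full lists of single replicates the ratios were 0.264 for replicate 1 and 0.208 for replicate 2. Counted per ranked summit instead of per Mb, the thresholded ratio was 0.859 (0.229 to 2.28) and did not pass (exact binomial test, p = 1.00). The ranked ratio at 540 was 0.465 (0.211 to 0.892; exact binomial test, p = 0.0173), so 1.35% of ranked summits near piRNA genes scored 540 or more, against 2.90% in the low-density bins. Whether sequencing coverage or alignment differs at piRNA genes was not tested, since the files hold no reads.

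Within the dense bins, those with 100 or more piRNA genes, summits became more frequent with distance from the nearest piRNA gene. In the ranked list at 540 there were 0.845 summits per Mb within 50 bp, 2.75 at 51 to 100 bp, 5.87 beyond that up to 200 bp, 6.77 at 201 to 300 bp, 19.1 at 301 to 500 bp, 29.2 at 501 to 1000 bp and 46.9 beyond 1000 bp. The thresholded list had 0 summits within 50 bp (1.18 Mb, up to 3.12 per Mb by an exact Poisson interval for counting error) and 16 beyond 1000 bp (15.0 per Mb, 8.59 to 24.4). Summits of any rank followed the same order, with 124 per Mb within 50 bp and 1127 per Mb beyond 1000 bp. GC moved with distance too, at 28.5% within 50 bp and 37.5% beyond 1000 bp, as did the share of protein-coding exons, at 5.08% and 32%. Near piRNA genes the dense bins held 3 thresholded summits in 2.76 Mb, against 23 in the other 2.34 Mb of the same bins, a ratio of 0.110 (0.0212 to 0.365; exact binomial test, p = 1.02e-05, a comparison added after the data were seen). On sequence of 30 to 40% GC outside protein-coding exons in those bins, 1 thresholded summit stood near piRNA genes and 2 farther away, a ratio of 0.471 that did not pass (exact binomial test, p = 0.614). The ranked list at 540 had 1 and 6 there, a ratio of 0.157 that did not pass either (exact binomial test, p = 0.0630).

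**Figure D2:**
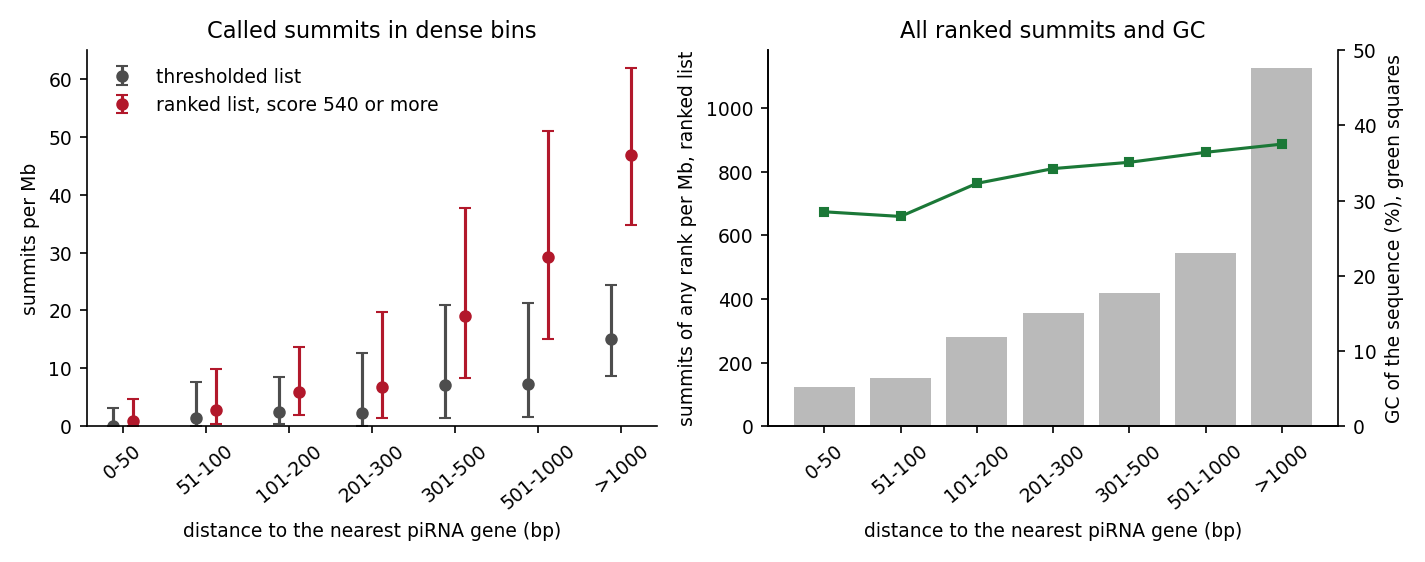
Left, summits per Mb of sequence in dense bins by distance to the nearest piRNA gene (bp) for the thresholded list and the ranked list at a score of 540 or more, with exact Poisson 95% intervals for counting error. Right, summits of any rank per Mb (bars) and GC of the sequence (green squares); every measure is lower close to piRNA genes, and the ranked list at 540 goes from 0.845 per Mb within 50 bp to 46.9 per Mb beyond 1000 bp.

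The bins as wholes differed less. The 51 dense bins hold 13865 members (94.2%), with 110 to 486 per bin and a median of 256, and fall into a first stretch of 14 bins between 4800001 and 6500000 and a second of 37 bins between 13600001 and 17300000. They held 26 thresholded summits (5.10 per Mb), against 87 in the 115 low-density bins (7.57 per Mb), a ratio of 0.674 (0.417 to 1.05) that did not pass (exact binomial test, adjusted p = 0.0829). At 540 they held 81 (15.9 per Mb), against 362 (31.5 per Mb), a ratio of 0.504 (0.391 to 0.643; exact binomial test, adjusted p = 6.81e-09). Without the sequence within 200 bp of piRNA genes the dense bins gave 31.2 summits per Mb at 540, a ratio of 0.992 (0.760 to 1.28; exact binomial test, p = 1.00, added after the data were seen). This remainder was uneven, with 12.7 per Mb in the first stretch and 40.7 in the second. Low-density bins had 26.7 per Mb in the chromosome centre, where the first lies, and 37.8 in its outer parts, where the second lies. At any rank the remainder had 752 per Mb, against 1096 in the low-density bins. For whole dense bins in the list of replicate 1 alone the ratio at 540 was 0.777 and did not pass (exact binomial test, p = 0.391). At 30 to 40% GC it was 0.603 and did not pass (exact binomial test, p = 0.203). Counted per ranked summit the direction turned, to 1.25 at 540 (0.971 to 1.60; exact binomial test, p = 0.0734) and to 1.67 in the thresholded list (1.03 to 2.62), which passed (exact binomial test, p = 0.0253). The thresholded ratio was also 1.00 per protein-coding gene start, 1.3 without sequence near piRNA genes and 2.81 at 30 to 40% GC, none of which passed (exact binomial test, p = 1.00, 0.253 and 0.219). Bins overlapped widely at 540, with 0 to 8 summits and a median of 1 in dense bins, and 0 to 14 and a median of 3 in low-density bins. At any rank dense bins had 9 to 120 summits (median 37), and low-density bins 35 to 161 (median 117). The 9 bins of intermediate density held 4 thresholded summits.

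**Figure D3:**
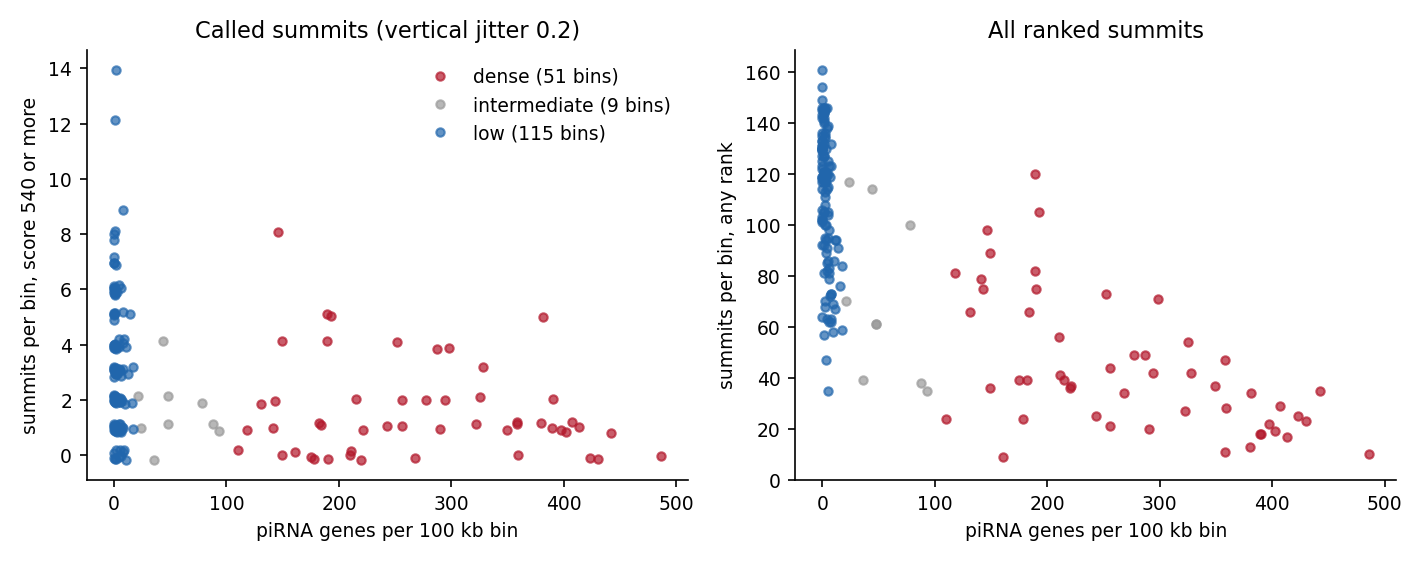
Summits per 100 kb bin of chromosome IV against the number of piRNA genes in the bin, for the ranked list at a score of 540 or more (left, jittered vertically) and at any rank (right), with each point 1 bin. The 51 dense bins range from 0 to 8 summits at 540 and from 9 to 120 at any rank, and the 115 low-density bins from 0 to 14 and from 35 to 161.

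The pair of dense stretches was unequal. The second stretch held 22 thresholded summits in 3.70 Mb (5.95 per Mb), and the first 4 in 1.40 Mb (2.86 per Mb). Low-density bins in the outer parts of the chromosome (25% of its length at either end), where the second stretch lies, had 10.5 per Mb, and those in the centre, where the first lies, had 5.35 per Mb. Farther than 200 bp from piRNA genes the second stretch had 12.9 per Mb and the first 3.80 per Mb. Compared only within the outer parts, dense bins had a ratio of 0.566 to low-density bins (0.327 to 0.948; exact binomial test, p = 0.0253), and within the centre 0.534 (0.138 to 1.49; exact binomial test, p = 0.295). The difference between the stretches itself was not tested.

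Of the 26 thresholded summits inside the dense bins, 11 lay within 200 bp of a tRNA, snoRNA or ncRNA gene, and 15 did not. By class, which can overlap, 9 lay near a tRNA gene, 1 near a snoRNA gene, 5 near an ncRNA gene and 3 near a piRNA gene. A protein-coding promoter window (1000 bp upstream to 200 bp downstream of the start) held 7, and 5 of these were among the 15. In low-density bins, 33 of 87 lay near a tRNA, tRNA pseudogene, snoRNA, snRNA or ncRNA gene, and 31 in a promoter window. The median distance of the 26 to a piRNA gene was 1760 bp (62 to 12781 bp), against 168 bp for all bases of the dense bins. The highest signal, 119, was at 16503774 in zip-7, 1952 bp from a piRNA gene. The next, 112, was at 5038933 at the tRNA-Lys gene C09B9.t1, 367 bp away, and a cluster of tRNA genes between 16398384 and 16400967, for tRNA-Ala and tRNA-His, had 3 summits. One summit upstream of hsp-1, which encodes a cytosolic Hsp70 chaperone, lay inside the ncRNA gene F26D10.23, and another inside hsp-1 lay within 200 bp of the snoRNA gene F26D10.24. The lowest signal of the 26, 21.1, was in rps-25, for a protein of the small ribosomal subunit. Signals in dense bins (median 84.4, 21.1 to 119) and in low-density bins (median 81.6, 55.7 to 310) overlapped. Dense bins hold 39 tRNA genes, of which 9 (23.1%) had a summit, against 14 of 30 (46.7%) in low-density bins, a difference given as a description. Genes named in these sentences were picked after their values were seen.

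Base composition and position near piRNA genes were followed together in the full ranked list. Of sequence near piRNA genes in the dense bins, 61.1% had under 30% GC over the same width, against 28.2% in the low-density bins. In each of the 7 classes of GC, summits of any rank were fewest near piRNA genes, intermediate in the rest of the dense bins and most frequent in low-density bins. At 30 to 35% GC the rates were 187 per Mb near piRNA genes, 480 per Mb in the rest of the dense bins and 846 per Mb in low-density bins. At 50% GC or more they were 1195, 1992 and 2531 per Mb. At 540 the number of summits near piRNA genes was 0 to 3 in each class, too few to compare by class.

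**Figure D4:**
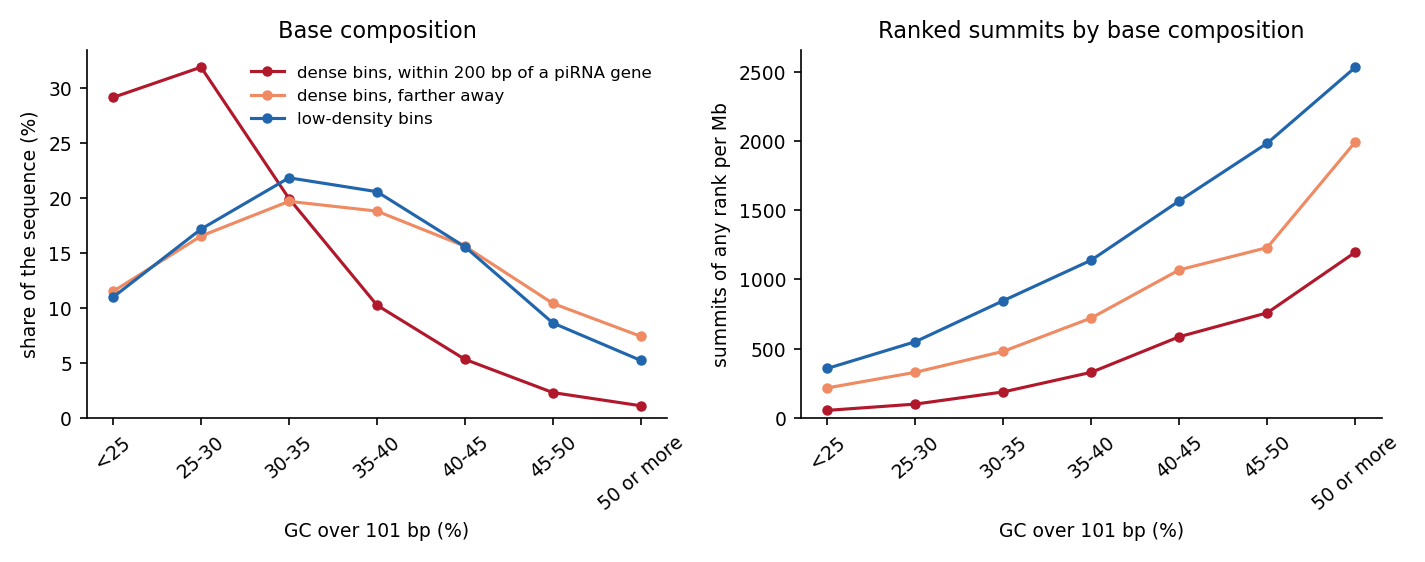
Left, share of sequence (%) in classes of GC (base and 50 bp to either side), for sequence of the dense bins within 200 bp of a piRNA gene, the rest of the dense bins and the low-density bins. Right, summits of any rank per Mb in the same classes; the order is the same in all 7 classes, with 187, 480 and 846 per Mb at 30 to 35% GC.

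Position and motif of the members add to this picture. Outside protein-coding genes lay 9132 members (62.1%), in introns 4864 (33.1%), in coding sequence 515 and in other exons 203. All 14714 are 21 bp long and 96.2% start with T in the genome. The core CTGTTTCA, searched on the gene's strand in the 60 bp upstream, was before 5105 members (34.7%), and began 46 bp before the gene at the median (interquartile range 45 to 47). It was before 11 of 3281 protein-coding genes of the chromosome (0.335%) and in 0.201% of windows of 60 bp from low-density bins. GTTTC, which lies within that core, was before 75.5% of members, 11.6% of protein-coding genes and in 8.25% of such windows. Of the 5 members at a thresholded summit, all had GTTTC and 1 had the full core. Of the 11 at a ranked summit, 8 had GTTTC and 3 the full core. The share of members with a ranked summit was 0.0588% (3 of 5105, interval 0.0121 to 0.172%) with the full core and 0.0833% (8 of 9609, 0.0360 to 0.164%) without it. These intervals overlap, and the difference was not tested. Some of these members share a summit, so they are not independent. In the reported thresholded and ranked lists, all summits beside members stood at least 62 bp from the gene except the one in 21ur-10061. In replicate 1 alone the summit beside 21ur-2814 also fell inside the gene.

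Genes of the piRNA pathway were examined in the same lists by their promoter windows. Of 50 listed names, 46 matched a protein-coding gene, and 1 of those (2.17%) had a thresholded summit, where 1.51% of all protein-coding genes did. At 540 it was 3 of 46 (6.52%), where 4.03% of all did. The gene with a thresholded summit was nrde-2, which acts in nuclear RNA silencing, with the summit at -913 bp from its start (signal 80.2). At 540, ego-1, which encodes an RNA-dependent RNA polymerase of the germline, had one at -413 bp (signal 64.2), and tofu-2, needed for 21U-RNA production, had one at -720 bp (signal 64.7) that is shared with spig-1. None of the 8 transcription genes found, including prde-1, snpc-4, tofu-4 and tofu-5, had a summit in either list, nor did prg-1, any of the 9 germ granule genes or the 6 other SNAPc genes. With so few genes listed and so small a share of all genes reached, these counts cannot show an absence.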

How the data were processed

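Peak lists of F44E2.7 ChIP-seq from 2 replicates were used as deposited. Positions are on ce11 per the labels. Aligner, peak caller and their settings: not given in the sources used here. Per the notes deposited with the samples, series-level lists derive from both replicates and the others from 1 replicate. Each deposited list gives the authors' score (up to 1000, rising as the IDR falls, with 540 at an IDR of 0.05 and 830 at 0.01), a signal value and a −log10 q. The −log10 q entered no selection or test and is given only for summits beside members. One ranked and 1 thresholded series-level list are reported, and the other pair served as alternatives.

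A summit is the peak start plus the summit offset, given 1-based, with identical positions counted once. Genes came from Ensembl release 115, and sequences, tRNA products and tRNA pseudogenes from RefSeq, both of WBcel235, whose chromosome IV (17493829 bp) holds all coordinates. Genes fell in the bin of their midpoint. Rates were compared by two-sided exact binomial tests given the lengths, with Clopper-Pearson intervals, Benjamini-Hochberg adjustment over 4 comparisons and a threshold of 0.05. The tests were also run on summits simulated as independent and uniform along chromosome IV, against all its other sequence. Clustering of summits and their link to GC were not simulated. Intervals cover counting error only. Named genes were all members within 200 bp of a thresholded summit, those added in the ranked list, the 5 closest beyond 200 bp and pathway genes with a summit. The members and lists were chosen with earlier results of these data known. Alternatives were the distance, bin size, density limit, merging of summits, removal of structural RNA genes, other lists, chromosome centre or ends, and gene starts. Exons, GC, soft-masking, ranked summits as the denominator and comparisons within dense bins were added later. Tests ran in scipy 1.17.1 with statsmodels 0.14.6, tables in pandas 2.3.3 and numpy 2.4.6, and plots in matplotlib 3.10.9, under Python 3.11.15.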

Additional observations from a re-analysis of the deposited data

How the results depend on the processing

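The ratio of summit density near piRNA genes to low-density bins stayed below 1 in all 19 alternatives of the ranked list at 540 and in 17 of 18 of the thresholded list. For the thresholded list (0.171) it ended its call per ranked summit (0.859), standardised to GC (0.535), standardised to GC outside protein-coding exons (0.635) and within dense bins at 30 to 40% GC outside exons (0.471), and it turned to 2.51 at 30 to 40% GC, where 2 summits stood near piRNA genes and 4 in low-density bins. For the ranked list (0.0923) only the comparison within dense bins at 30 to 40% GC outside exons (0.157) did not pass. Leaving out a replicate gave 0 to 0.124 in the thresholded list and 0.0895 to 0.128 in the ranked list. For dense bins the thresholded ratio (0.674) passed with bins of 50 kb (0.622) and in the outer parts of the chromosome (0.566), and turned to 1.00 per protein-coding gene start, 1.3 without sequence near piRNA genes, 2.81 at 30 to 40% GC and 1.67 per ranked summit, of which only the last passed, in favour of dense bins (exact binomial test, p = 0.0253). The ranked ratio (0.504) did not pass at 30 to 40% GC (0.603) or without sequence near piRNA genes (0.992), and turned to 1.25 per ranked summit. Without a replicate, dense bins gave 0.376 to 0.474 in the thresholded list, which passed without replicate 1, and 0.543 to 0.777 in the ranked list, which did not pass without replicate 2. Fewer summits enter many of these alternatives, and the cause of each change was not tested. No paired analysis was possible because there is 1 group. Depth is unknown, so a missing summit says only that none was called.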

Other observations

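The 649 piRNA genes on the other 5 chromosomes lie scattered and were counted in the same way. Of them, 1 (0.154%) had a thresholded summit within 200 bp, namely 21ur-12937 on chromosome I, and 5 (0.770%) had one in the ranked list at 540. These were 21ur-12937, 21ur-11977 and 21ur-12279 on chromosome I, 21ur-12807 on chromosome II and 21ur-14912 on chromosome III. None of the 202 piRNA genes on chromosome V or the 162 on X had a summit in either list. Of windows of 21 bp on chromosome IV, 0.282% had a thresholded summit as close, and 1.07% had one in the ranked list at 540. Such windows were not counted on the other chromosomes, and 1 and 5 genes are too few to set against these shares. The shares of piRNA genes on chromosome IV were lower, at 0.0340% and 0.0748%, and the difference was not tested.

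Within the second dense stretch, 5.44% of ranked summits farther than 200 bp from a piRNA gene scored 540 or more (63 of 1159), against 1.67% in the first stretch (10 of 598). In the low-density bins it was 2.90%. These shares were read after the data were seen and were not tested.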
